A study of Mus musculus with 58 samples.

Results

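Genes that liver and kidney use to keep blood glucose up and to burn fat during a fast were followed across both tissues, both chemicals and every dose. The 10 members are Pck1, G6pc, Pdk4, Angptl4, Creb3l3, Igfbp1, Ppargc1a, Tat, Foxo1 and Irs2, out of 24123 genes counted. They were chosen by name, with earlier results of these data known. Used were the kidney rows that carry these symbols and the liver rows with the same RefSeq accession, 1 transcript row for each gene. The study gave adult male B6C3F1/J mice, 5 to 6 weeks old when obtained, then acclimatized for a week and fed without restriction, trichloroethylene (TCE) or tetrachloroethylene (PCE) into the stomach once, or vehicle alone. Both chemicals are chlorinated solvents, and PCE carries a chlorine where TCE carries a hydrogen. The mg/kg doses were 24, 80, 240 and 800 for TCE, and 30, 100, 300 and 1000 for PCE. On a molar scale these match at about 0.22, 0.67, 2 and 6 mmol/kg. Each chemical had its own vehicle group, given 5% Alkamuls El-620, a surfactant, in saline at 5 mL/kg. Whole-transcriptome RNA sequencing of liver and kidney gave 58 libraries in 20 groups. There are 3 libraries in a group, but only 2 for livers given 0.67 mmol/kg PCE and 2 for vehicle kidneys of the PCE arm. All mice were dosed in the morning. The labels used here mention no fast and no interval between dose and tissue collection. A strain label of C57BL/6 stands beside the hybrid strain named in the protocol.

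In fasting, glucagon and glucocorticoids rise and insulin falls. Insulin normally acts through receptor substrates such as IRS2 to keep the transcription factor FOXO1 out of the nucleus, so low insulin lets FOXO1 act on genes such as G6pc and Igfbp1. PPARa, a nuclear receptor for fatty acids, and CREB3L3, a membrane-bound factor of liver released on fasting, switch on fat burning. PPARGC1A is a coactivator that these factors share. PCK1 and G6PC are enzymes of glucose production, and TAT breaks down tyrosine, which feeds it. PDK4 blocks pyruvate dehydrogenase and so spares glucose. ANGPTL4 is secreted and inhibits lipoprotein lipase, and IGFBP1 is secreted and binds insulin-like growth factors.

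Textbook hormone control of this group is written in part into short promoter motifs. The sequences of 4 members are printed because their windows hold such motifs. Pck1 and G6pc encode enzymes of glucose production, and Igfbp1 and Creb3l3 are among the 4 members called in kidney at 6 mmol/kg PCE. The other members called there, Pdk4 and Angptl4, are not shown, so the printed windows do not represent that set. Each is the RefSeq window of 250 bases before to 50 after the gene start in GRCm38.p6, 5' to 3' on the gene's strand, and capitals mark the motif letters found on either strand. Pck1 lies at chr2:173152823-173153122 on the plus strand, G6pc at chr11:101367466-101367765 on the plus strand and Igfbp1 at chr11:7197537-7197836 on the plus strand. The Creb3l3 window shown lies at chr10:81092542-81092841 on the minus strand, which is a start inside the gene. The window at chr10:81098823-81099122, around the start of the counted Creb3l3 transcript, held none of the motifs.
Pck1: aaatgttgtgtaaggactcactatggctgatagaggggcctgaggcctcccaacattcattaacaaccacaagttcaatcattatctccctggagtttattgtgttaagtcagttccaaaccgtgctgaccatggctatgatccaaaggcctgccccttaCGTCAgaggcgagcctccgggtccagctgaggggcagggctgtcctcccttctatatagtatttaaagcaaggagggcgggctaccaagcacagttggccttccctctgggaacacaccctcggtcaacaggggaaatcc
G6pc: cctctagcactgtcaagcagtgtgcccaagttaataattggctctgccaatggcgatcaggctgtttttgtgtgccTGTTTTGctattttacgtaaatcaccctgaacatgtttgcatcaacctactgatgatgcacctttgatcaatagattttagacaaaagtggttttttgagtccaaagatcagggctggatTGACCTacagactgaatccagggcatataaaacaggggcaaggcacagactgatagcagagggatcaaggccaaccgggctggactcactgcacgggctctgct
Igfbp1: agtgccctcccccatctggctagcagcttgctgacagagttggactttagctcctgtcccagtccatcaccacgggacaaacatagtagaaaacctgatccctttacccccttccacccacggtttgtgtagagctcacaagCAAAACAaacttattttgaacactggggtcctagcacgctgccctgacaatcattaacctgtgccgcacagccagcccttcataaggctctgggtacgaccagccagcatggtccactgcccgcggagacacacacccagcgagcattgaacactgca
Creb3l3: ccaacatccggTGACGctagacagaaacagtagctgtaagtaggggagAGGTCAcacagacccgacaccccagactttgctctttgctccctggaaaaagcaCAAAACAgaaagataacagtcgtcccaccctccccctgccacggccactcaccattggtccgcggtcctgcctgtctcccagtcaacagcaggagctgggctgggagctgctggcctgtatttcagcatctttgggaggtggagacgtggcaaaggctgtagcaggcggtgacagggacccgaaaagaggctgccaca

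The motif TGACG, a half-site of the cAMP response element, occurred in Pck1 on the minus strand at -90, counted from the gene start to the leftmost base as printed, and in Creb3l3 at -239. A further copy lay at -49 in the Ppargc1a window, which is at a start other than that of the counted transcript. Of all 32851 windows of that length, 20.8% held it. The letters CAAAACA, the core of the insulin response element, occurred in Igfbp1 at -108, in G6pc on the minus strand at -174, in Creb3l3 at -148 and in Irs2 at -37, against 6.28% of all windows. The nuclear receptor half-site AGGTCA occurred in G6pc on the minus strand at -54 and in Creb3l3 at -202, against 16.3% of all windows. The full element TGACGTCA, which contains the half-site TGACG, occurred in none of the 10 member windows, against 1.79% of all windows. The forkhead core GTAAACA was also in none, against 3.65%. The windows of Pdk4, Foxo1 and Tat, the last at a start other than that of the counted transcript, held none of these letters. Angptl4 was not among the windows searched. These are matches of letters and say nothing about binding.

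Each liver library held between 30932385 and 125880542 counts, and each kidney library between 23247565 and 32420329. Liver libraries of vehicle and of 6 mmol/kg held at least 88048143 counts, and those of the doses between at most 65112568. Depth thus differed between vehicle and the lower doses in liver, and its part was not tested. Levels are CPM, counts scaled to a common library size, with library sizes scaled by the TMM method within a tissue, or over all 58 libraries where tissues are compared. The marker of hepatocytes, Alb, stood at 50947 to 113386 CPM in liver, and proximal tubule markers summed to 13701 to 21930 CPM in kidney. Some kidneys carried other tissue. Ucp1, the marker of brown fat, passed 30 CPM in 8 kidney libraries, and adrenal cortex markers summed to 5035 CPM in 1 kidney library at 0.67 mmol/kg TCE. Fewer cells of a type and less RNA per cell cannot be told apart in such bulk tissue.

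Without solvent, 6 of the 9 members tested were higher in liver than in kidney. In that contrast, which compares 6 liver with 5 kidney vehicle libraries, 72.9% of all tested genes were called at an adjusted p under 0.05, and 35.8% were higher in liver. Tat and Creb3l3 were nearly confined to liver, Igfbp1, Irs2, Angptl4 and Pck1 were higher in liver, and G6pc, Pdk4 and Foxo1 did not pass. Tat had 2368 to 4821 CPM in liver and 0 to 1.38 CPM in kidney, a log2 difference of 15.18 ± 0.63 (SE, adjusted p = 5.12e-25). Creb3l3 averaged 602 ± 44.2 CPM in liver (SD, n = 6) and 0.261 ± 0.193 CPM in kidney (SD, n = 5), a log2 difference of 11.48 ± 0.28. Igfbp1 averaged 192 ± 76.2 CPM in liver and 3.31 ± 1.85 CPM in kidney, a difference of 6.20 ± 0.55. Irs2 was higher in liver by 1.88 ± 0.43, Angptl4 by 1.63 ± 0.26 and Pck1 by 0.66 ± 0.23 (adjusted p = 0.0116) on the log2 scale. Pck1 lost that call without the second liver vehicle library of PCE (adjusted p = 0.072) or without the first kidney vehicle library of PCE (adjusted p = 0.0584).

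The remaining members of that contrast did not pass. Pdk4 averaged 17.7 ± 5.23 CPM in liver and 18.4 ± 7.62 CPM in kidney. Foxo1 averaged 39.6 ± 9.81 CPM in liver and 34.4 ± 1.09 CPM in kidney. G6pc averaged 1109 ± 318 CPM in liver and 817 ± 262 CPM in kidney (adjusted p = 0.0676), and it was called when any of 4 single vehicle libraries was left out, with an adjusted p between 0.0389 and 0.0491. Ranked per kilobase of transcript, Tat led in liver vehicle libraries with 1515 ± 375 CPM per kilobase, followed by Pck1 with 1033 ± 320, G6pc with 459 ± 132, Creb3l3 with 262 ± 19.3 and Igfbp1 with 126 ± 50. Angptl4 followed in liver at 23.1 ± 3.85 CPM per kilobase, then Pdk4, Irs2 and Foxo1 at 5.09 ± 1.5, 4.59 ± 2.84 and 4.57 ± 1.13. Tat and Pck1 overlapped within 1 SD there, as did Pdk4, Irs2 and Foxo1. In kidney the order per kilobase began with Pck1 at 647 ± 118 and G6pc at 338 ± 108, then Angptl4 at 8.5 ± 3.32, Pdk4 at 5.27 ± 2.19 and Foxo1 at 3.97 ± 0.125. Igfbp1 at 2.17 ± 1.21, Irs2 at 1.3 ± 0.704, Tat at 0.158 ± 0.252 and Creb3l3 at 0.114 ± 0.0843 closed it. Within 1 SD, Angptl4 overlapped Pdk4, Pdk4 overlapped Foxo1 and Igfbp1, Igfbp1 overlapped Irs2, and Tat overlapped Creb3l3.

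Ppargc1a could not be followed. Its row was at 0 counts in all 29 liver and all 29 kidney libraries, in tissues that are known to express it. A second, non-coding transcript that the RefSeq table assigns to the same gene reached at most 7 counts in a liver library and ranged over 3 to 14 counts in kidney libraries. That row carries no deposited symbol and was not used in its place. The counting tool sets aside reads that fit overlapping features, and 19.68 to 22.55% of each library went that way, so the 0 is not read as absence of the RNA. The other 9 members entered the tests.

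**Figure D1:**
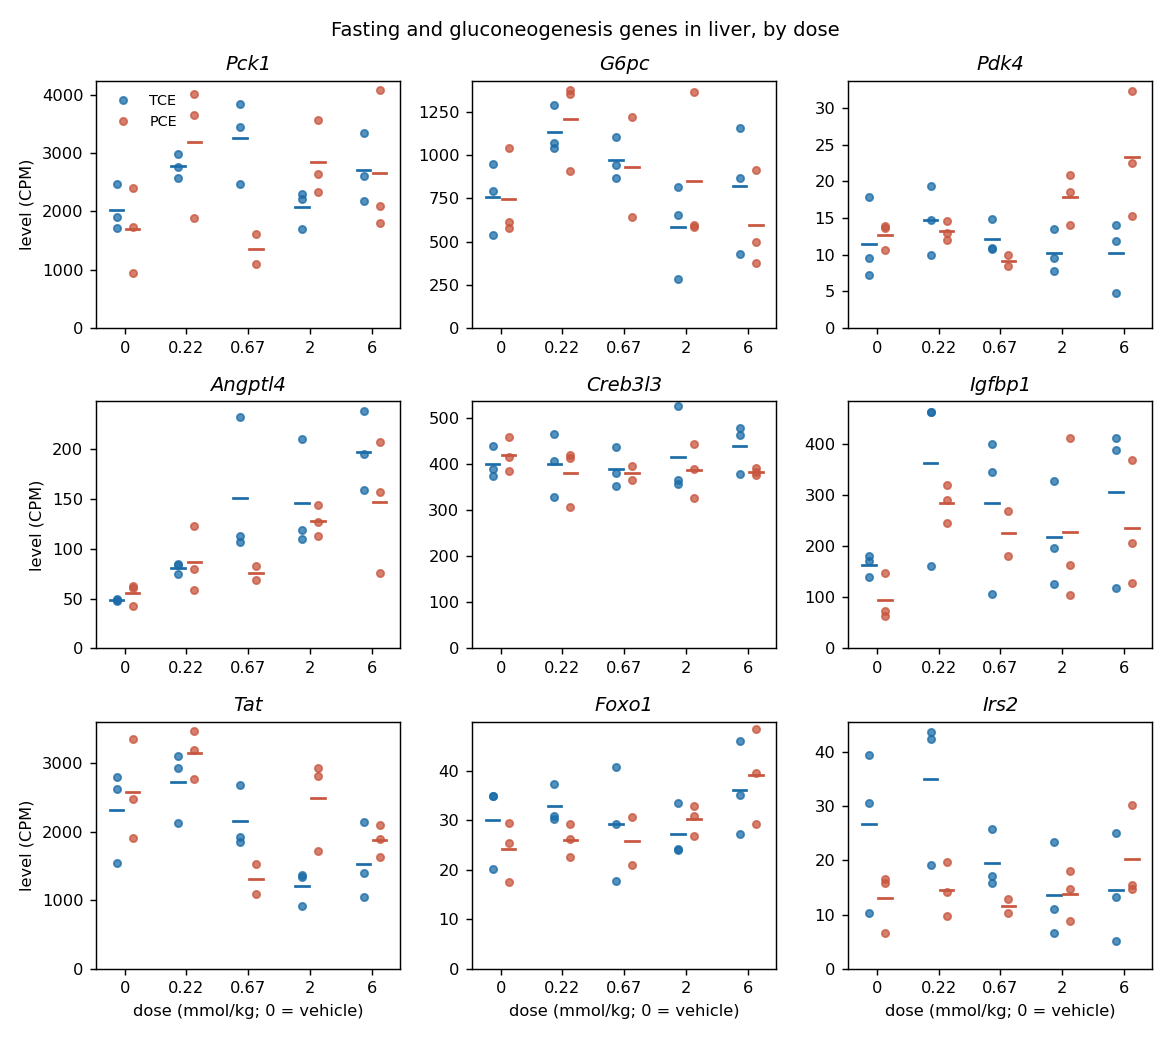
Levels of the 9 measurable members in liver, in CPM on linear axes from 0, by dose in mmol/kg with vehicle as 0, TCE in blue and PCE in red. Each point is a library and each bar a group mean. Angptl4 stood at 159 to 238 CPM after 6 mmol/kg TCE, above the vehicle livers of the TCE arm at 48 to 49.4 CPM and those of the PCE arm at 42.4 to 62.9 CPM.

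In liver, Angptl4 was the member that changed at 6 mmol/kg, and it rose with both chemicals. After TCE it had 159, 195 and 238 CPM at 6 mmol/kg, against 48.3, 49.4 and 48 CPM in vehicle livers. The groups did not overlap, and every TCE liver at a lower dose also exceeded its vehicle group, with 74.4 to 84.8 CPM at 0.22 mmol/kg, 107 to 232 CPM at 0.67 and 110 to 210 CPM at 2. The change at 6 mmol/kg was 2.02 ± 0.34 on the log2 scale (adjusted p = 0.00289), and the increase per dose step was 0.49 ± 0.08 (adjusted p = 0.00781). That made 1 of 9 members called, against 1.31% of all tested genes (0.539% higher), and none fell. In the trend, 0.851% of all tested genes were called and 0.474% rose. At 2 mmol/kg the log2 difference was 1.59 ± 0.33 with an adjusted p of 0.128, and at 0.67 mmol/kg 1.63 ± 0.33 with an adjusted p of 0.154, so neither was called.

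After PCE, Angptl4 had 207, 76.1 and 157 CPM at 6 mmol/kg, against 42.4, 62.9 and 60.8 CPM in vehicle livers. The second PCE library was the lowest of the 3 and still lay above its vehicle group. The change was 1.41 ± 0.33 (adjusted p = 0.0178), again 1 of 9 members, with 5.84% of all tested genes called and 2.28% higher. Leaving out the first vehicle library, or the first or the third library at 6 mmol/kg, ended that call, with adjusted p-values of 0.0692, 0.141 and 0.054. With each library's dependence of counts on transcript length and GC content as covariates, the call ended for TCE (1.85, adjusted p = 0.0516) and for PCE (1.22, adjusted p = 0.268). Over all genes that fit called 60 with TCE, against 172, and 16 with PCE, against 770.

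Over the whole dose range, 3 of 9 members rose with PCE in liver, where the trend called 11.8% of all tested genes, 5.07% upward. Angptl4 rose by 0.34 ± 0.07 per dose step (adjusted p = 0.0127), Pdk4 by 0.22 ± 0.06 (adjusted p = 0.0404) and Foxo1 by 0.16 ± 0.05 (adjusted p = 0.0381). Pdk4 had 10.6, 13.6 and 13.9 CPM in vehicle livers, 12.9, 12 and 14.6 CPM at 0.22 mmol/kg PCE, 8.43 and 9.92 CPM at 0.67, 20.9, 14.1 and 18.5 CPM at 2, and 32.3, 15.2 and 22.5 CPM at 6. All livers at the 2 highest doses lay above the vehicle group. Foxo1 had 48.4, 29.2 and 39.7 CPM at 6 mmol/kg PCE, against 25.4, 17.6 and 29.4 CPM in vehicle livers. Its groups overlapped by 1 library, at 29.2 against 29.4 CPM. Of the 14 fits that left out 1 library, 7 ended the Foxo1 call, 8 ended the Pdk4 call, and 1, without the first liver at 6 mmol/kg, ended the Angptl4 call (0.29, adjusted p = 0.0565).

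Library composition moved with the Foxo1 values. Foxo1 is counted over a long transcript of 8665 bases, and between livers of the same group its deviations followed the library's slope of log2 level on GC content (Pearson r = -0.90, Spearman rho = -0.85, permutation p = 1.0e-05 for both, the smallest that 100000 permutations can give, over 29 libraries). The r was -0.85 without the 2 libraries whose GC slope lay farthest from the median, and the Pearson relation had an adjusted p of 1.8e-04 over the 36 relations of this kind computed. That slope was -0.219, -0.178 and -0.341 per 10 points of GC at 6 mmol/kg PCE, against 0.0386, 0.214 and 0.000275 in the vehicle livers. With both slopes as covariates the Foxo1 trend was -0.03 per step (adjusted p = 0.803), the Pdk4 trend was 0.19 (adjusted p = 0.511) and the Angptl4 trend was 0.32 (adjusted p = 0.329). Over all genes that trend fit called 148, against 1537 without the covariates. Slope and PCE dose moved together in these livers, so their parts cannot be told apart.

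At the lower doses edgeR called no member in any of the 12 comparisons of either tissue, where 0.182% of all tested genes were called in liver at 2 mmol/kg PCE, 0.0141% in kidney at 2 mmol/kg PCE, and 0, 0.00703 or 0.00759% in the other comparisons. DESeq2 called 1 member in 4 of them, at 0.67 and 2 mmol/kg TCE and 2 mmol/kg PCE in liver and at 2 mmol/kg PCE in kidney. Over all genes DESeq2 called 42, 54, 180 and 35 there in that order, against 1, 1, 24 and 2 by edgeR. The other members showed no called change in liver at 6 mmol/kg, which is a limit of detection and not evidence of equal levels. Igfbp1 had 119, 412 and 389 CPM at 6 mmol/kg TCE, against 172, 140 and 181 CPM in vehicle livers. At 6 mmol/kg PCE it had 129, 369 and 207 CPM, against 63.6, 148 and 73.5 CPM in vehicle livers, a log2 difference of 1.31 ± 0.56 (adjusted p = 0.146). Pck1 stood at 3351, 2185 and 2605 CPM after TCE and at 1713, 1898 and 2479 CPM in its vehicle livers, with a difference of 0.42 ± 0.33. After PCE it stood at 4083, 1802 and 2095 CPM, against 939, 2411 and 1739 CPM in vehicle livers. G6pc spread about as widely within groups as between them, with 430, 871 and 1158 CPM after TCE, against 540, 794 and 948 CPM in vehicle livers. Creb3l3 was the most even member in liver, at 307 to 524 CPM over all 29 libraries.

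Tat and Irs2 leaned down with TCE without passing. Tat had 1539, 2631 and 2808 CPM in vehicle livers, 2127, 2935 and 3104 CPM at 0.22 mmol/kg TCE, 1931, 2679 and 1849 CPM at 0.67, 1368, 913 and 1345 CPM at 2, and 2151, 1048 and 1404 CPM at 6. All 3 livers at 2 mmol/kg lay below the vehicle group. Its log2 difference at 2 mmol/kg was -0.94 ± 0.28 (adjusted p = 0.314), and its slope was -0.23 ± 0.07 per step (adjusted p = 0.152). Irs2 had 5.12, 13.3 and 25.1 CPM at 6 mmol/kg TCE, against 10.3, 30.6 and 39.4 CPM in vehicle livers. Its deviations between livers of the same group followed the length slope (Pearson r = 0.66, Spearman rho = 0.67, permutation p = 1.0e-04 and 1.5e-04, Pearson r without the 2 farthest libraries 0.60, adjusted p = 9.0e-04 over 36 relations).

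**Figure D2:**
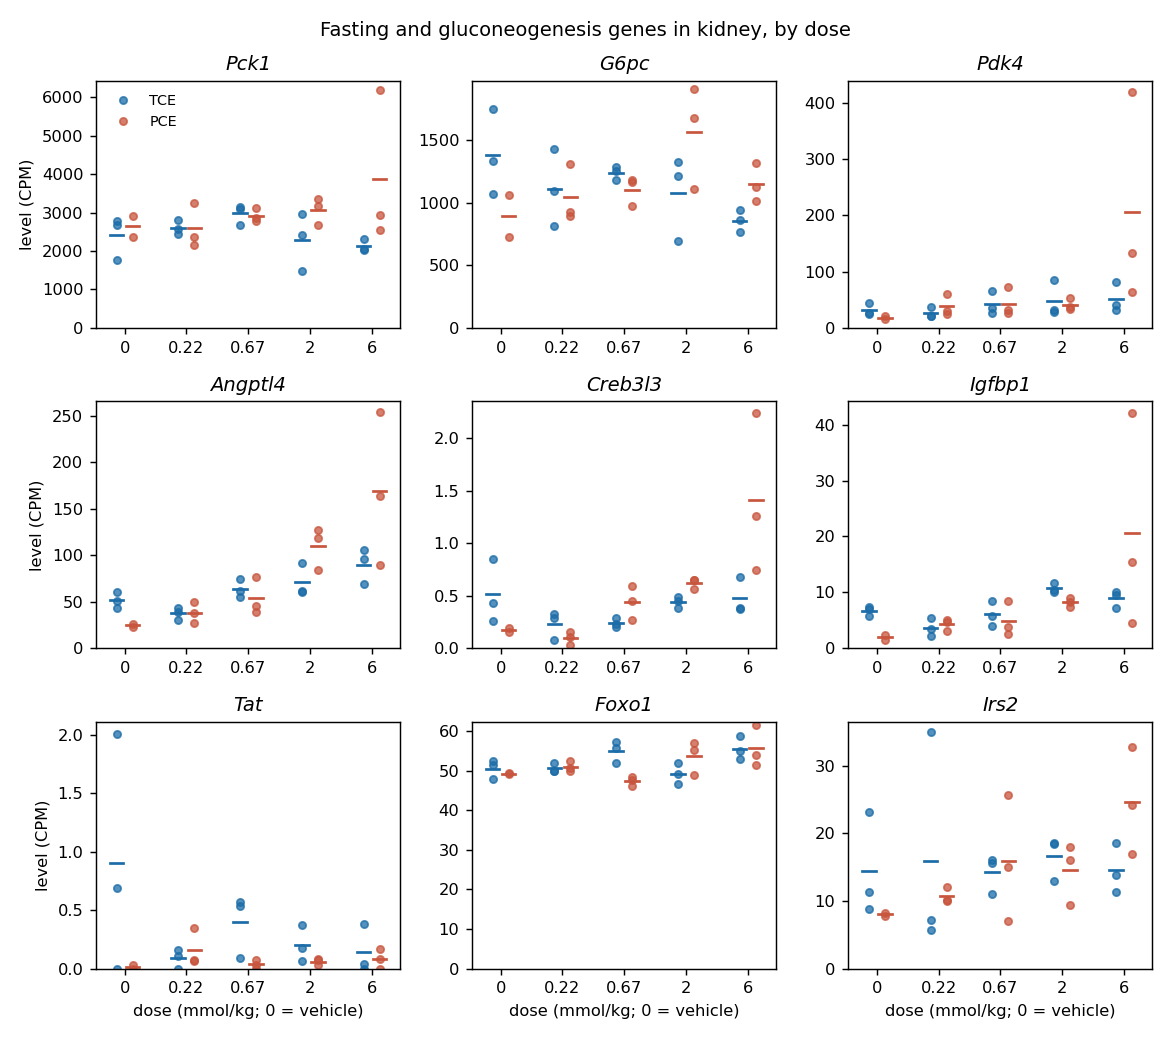
Levels of the same members in kidney, in CPM on linear axes from 0, by dose in mmol/kg with vehicle as 0, TCE in blue and PCE in red, with a point for each library and a bar for each group mean. The first library at 6 mmol/kg PCE was the highest of all kidneys for Pdk4, at 419 CPM, and for Angptl4, at 254 CPM.

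In kidney, 4 of the 9 members rose at 6 mmol/kg PCE. They were Angptl4, Igfbp1, Creb3l3 and Pdk4, and none fell, where 3.83% of all tested genes were called and 1.77% were higher. The median log2 difference of the 9 members was 1.98, against 0.03 over all tested genes. The members were chosen with earlier results of these data known, so these figures describe them and are no independent support. Angptl4 had 26.3 and 23.3 CPM in vehicle kidneys, 27.1, 38 and 50.1 CPM at 0.22 mmol/kg PCE, 76.8, 39 and 45.6 CPM at 0.67, 84.3, 119 and 127 CPM at 2, and 254, 89.8 and 164 CPM at 6. Every dosed kidney lay above the vehicle kidneys. The change at 6 mmol/kg was 2.77 ± 0.39 (adjusted p = 0.000432), and the difference at 2 mmol/kg, 2.15 ± 0.38, had an adjusted p of 0.0691.

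Igfbp1 had 42.1, 4.55 and 15.4 CPM at 6 mmol/kg PCE, against 1.5 and 2.42 CPM in vehicle kidneys, a change of 3.38 ± 0.67 (adjusted p = 0.00619). The library with 42.1 CPM stood far above the others, and the lowest at 6 mmol/kg lay below the 8.99, 7.39 and 8.37 CPM of the 2 mmol/kg kidneys. Pdk4 had 419, 64.2 and 134 CPM at 6 mmol/kg, against 16.6 and 20.4 CPM in vehicle kidneys, a change of 3.47 ± 0.79 (adjusted p = 0.0151). The same library was highest for both genes. Creb3l3 had 56, 24 and 37 counts at 6 mmol/kg, or 2.24, 0.748 and 1.26 CPM, against 5 counts in each vehicle kidney, or 0.192 and 0.159 CPM. Its change of 2.97 ± 0.56 (adjusted p = 0.00346) thus started from a trace level. Even the highest kidney stayed far under the 307 CPM of the lowest liver.

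Over the PCE dose range 5 of 8 tested members rose in kidney, against 3.37% of all tested genes called and 1.94% upward. Creb3l3 rose by 0.91 ± 0.13 per dose step (adjusted p = 0.00167), Igfbp1 by 0.78 ± 0.15 (adjusted p = 0.0138), Pdk4 by 0.76 ± 0.17 (adjusted p = 0.0311) and Angptl4 by 0.71 ± 0.08 (adjusted p = 0.00126). Irs2 rose by 0.37 ± 0.09 (adjusted p = 0.0416). It had 24.2, 16.9 and 32.8 CPM at 6 mmol/kg, against 7.8 and 8.29 CPM in vehicle kidneys, and its call ended in 10 of the 14 fits that left out 1 library. The Pdk4 trend was lost in 5 of those fits. Tat fell under the count filter of that fit.

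The enzymes of glucose production and Foxo1 did not pass at 6 mmol/kg PCE in kidney. Pck1 had 6186, 2535 and 2937 CPM, against 2356 and 2923 CPM in vehicle kidneys, a log2 difference of 0.56 ± 0.29 (adjusted p = 0.354). Its highest value came from the same first library. G6pc had 1321, 1010 and 1128 CPM, against 724 and 1058 CPM in vehicle kidneys, and its highest group was 2 mmol/kg PCE with 1911, 1110 and 1675 CPM. Foxo1 varied little, at 46.1 to 61.5 CPM over all 29 kidneys. Tat had 2, 0 and 5 counts at 6 mmol/kg PCE and 0 and 1 counts in vehicle kidneys, too few to read a direction.

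The kidney calls at 6 mmol/kg PCE rest on few libraries. Without the first or the second vehicle kidney, which leaves a single vehicle library whose spread is assumed to be that of the other groups, Angptl4 alone stayed called, with changes of 2.86 and 2.68. The other 3 kept changes of like size without passing, at 3.10 and 2.84 for Creb3l3, 3.08 and 3.77 for Igfbp1 and 3.33 and 3.63 for Pdk4, while leaving out 1 library at a time moved the genes called in all between 62 and 841, against 545 with all libraries. Without the first kidney at 6 mmol/kg, Angptl4 changed by 2.36, Creb3l3 by 2.49 and Igfbp1 by 2.33, all still called, and Pdk4 by 2.42 (adjusted p = 0.0841). Against both vehicle groups pooled, all 4 were called, with changes of 2.05 for Angptl4, 1.89 for Creb3l3, 2.11 for Igfbp1 and 2.95 for Pdk4. With the PCE kidneys fitted alone, Igfbp1 (3.38, adjusted p = 0.0635) and Pdk4 (3.48, adjusted p = 0.0638) were not called.

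Brown fat was present in the third kidney at 6 mmol/kg PCE, where Ucp1 stood at 111 CPM, against 0.36 and 0.156 CPM in the first and second and 2.38 and 9.4 CPM in the vehicle kidneys. The 7 adipocyte markers summed to 1.64 to 158 CPM at 6 mmol/kg and to 3 to 20 CPM in vehicle kidneys, and none of the 7 was at 0 in every library of either group. Of the kidneys at 6 mmol/kg, the first, with little fat, was the highest for Pdk4, Angptl4, Igfbp1 and Creb3l3. The second, also with little fat, was the lowest for all 4, and the third lay between them. Without the 8 kidneys over 30 CPM Ucp1, the 4 members stayed called, with changes of 2.78 for Angptl4, 3.03 for Creb3l3, 3.53 for Igfbp1 and 3.69 for Pdk4. In the trend, that left Angptl4 and Creb3l3 called, while Igfbp1 (0.81 per step, adjusted p = 0.0875), Pdk4 (0.84, adjusted p = 0.0947) and Irs2 (0.29, adjusted p = 0.252) were not, with 59 genes called in all, against 466. Alb, which marks liver RNA, stood at 14.5, 11.8 and 16.8 CPM at 6 mmol/kg and at 9.07 and 11.8 CPM in vehicle kidneys. The 6 hepatocyte markers, which include Cyp2e1, a gene that kidney also expresses, summed to 3645 to 5034 CPM at 6 mmol/kg and to 3636 to 4162 CPM in vehicle kidneys, and 1 of them was at 0 in both vehicle kidneys. Between kidneys of the same group, G6pc followed that sum (Pearson r = 0.72, Spearman rho = 0.60, permutation p = 2.0e-05 and 7.0e-04, adjusted p = 2.4e-04 and 0.0063 over the 36 relations, r = 0.57 without the 2 farthest libraries). Creb3l3 followed it by rho alone (r = 0.47, rho = 0.56, permutation p = 0.00953 and 0.00164, adjusted p = 0.0591 and 0.0118, r = 0.59 without 2 libraries). Over all kidneys the hepatocyte marker sum was 2726 to 5034 CPM, with Alb at 6.85 to 83 CPM. In liver the sum was 80995 to 150588 CPM, with Alb at 50947 to 113386 CPM. The part of the adipocyte and hepatocyte markers in the kidney results was not tested.

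TCE called no member in kidney. At 6 mmol/kg 0.176% of all tested genes were called. At an unadjusted p under 0.05 stood 3 of the 9 members, against 1439 of 14216 genes. Angptl4 had 68.8, 95.7 and 106 CPM at 6 mmol/kg, against 50.9, 60.8 and 43 CPM in vehicle kidneys. The groups did not overlap, and the log2 difference was 0.80 ± 0.32 (adjusted p = 0.354). Its slope over dose was 0.25 ± 0.06 per step in edgeR (adjusted p = 0.168). DESeq2 called that slope with 0.24 and an adjusted p of 0.00677, among 139 genes it called in that trend. There edgeR called 0 genes of 13702, with 1243 at an unadjusted p under 0.05. G6pc had 763, 858 and 941 CPM, against 1333, 1748 and 1073 CPM in vehicle kidneys. All 3 TCE kidneys lay below the vehicle group, with a difference of -0.70 ± 0.24 (adjusted p = 0.284). Igfbp1 and Creb3l3, with 10.1, 9.59 and 7.16 CPM and with 0.387, 0.37 and 0.677 CPM, overlapped their vehicle kidneys at 7.37, 7.05 and 5.7 CPM and at 0.263, 0.846 and 0.436 CPM.

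Kidney Tat was read with caution in the TCE arm. It had 12, 0 and 1 counts at 6 mmol/kg, against 0, 50 and 19 counts in vehicle kidneys. The kidney with 50 counts also had the highest Alb of all kidneys, 83 CPM, and its Tat counts were 2.43% of its Alb counts. In liver that share was 1.06 to 4.65%, with a median of 2.42%. The part of liver RNA in that value was not tested.

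**Figure D3:**
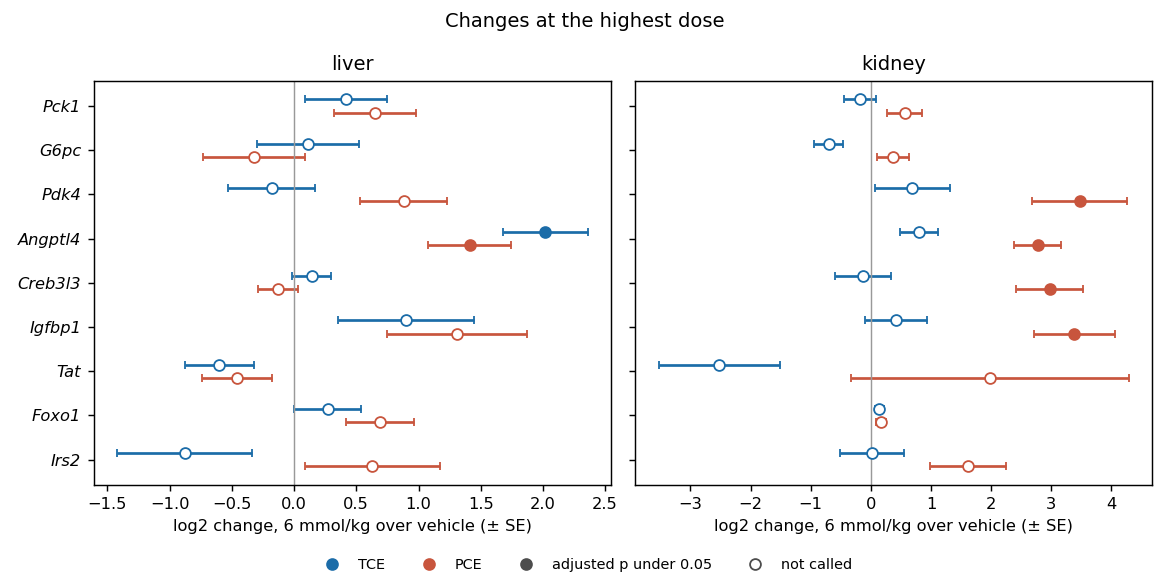
Log2 change at 6 mmol/kg over vehicle for each member, with bars of 1 SE, liver on the left and kidney on the right, TCE in blue above PCE in red. Filled points passed an adjusted p of 0.05 in edgeR: Angptl4 with both chemicals in liver, and Angptl4, Creb3l3, Igfbp1 and Pdk4 with PCE in kidney.

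At matched molar doses the 2 chemicals were compared as the PCE response minus the TCE response, each against its own vehicle. The 9 members at 4 doses in 2 tissues gave 72 such differences, adjusted over all genes of each contrast, and edgeR called none of them, where 0 to 0.0228% of all tested genes were called. In kidney at 6 mmol/kg, where 0.0211% of all tested genes were called, the differences were nonetheless large. Of the 9 members, 5 had an unadjusted p under 0.05, against 1086 of 14216 genes. For Creb3l3 the difference was 3.10 on the log2 scale with a 95% interval of 1.60 to 4.60 (adjusted p = 0.197). Igfbp1 differed by 2.96 (1.24 to 4.68, adjusted p = 0.299), Pdk4 by 2.78 (0.79 to 4.77, adjusted p = 0.432), Angptl4 by 1.97 (0.96 to 2.98, adjusted p = 0.215) and G6pc by 1.07 (0.31 to 1.83, adjusted p = 0.428). DESeq2 called 2 of them, Angptl4 (adjusted p = 0.02) and Igfbp1 (adjusted p = 0.0459). Over all genes it called 49 there, against 3 by edgeR. Without the second kidney at 6 mmol/kg PCE, edgeR called Angptl4, Creb3l3 and Igfbp1, with adjusted p-values of 0.041, 0.0453 and 0.0345.

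Both vehicle groups enter these differences. The log2 difference of the PCE vehicle kidneys from the TCE vehicle kidneys was -1.76 ± 0.65 for Igfbp1, -1.54 ± 0.60 for Creb3l3 and -1.06 ± 0.37 for Angptl4. No gene was called by edgeR or DESeq2, and 5 of 9 members had an unadjusted p under 0.05, against 1158 of 14216 genes. Set directly against the TCE kidneys at 6 mmol/kg, without the vehicles, the PCE kidneys differed by 1.56 for Creb3l3 (adjusted p = 0.0762), 1.99 for Pdk4 (adjusted p = 0.142), 1.20 for Igfbp1 (adjusted p = 0.302) and 0.91 for Angptl4 (adjusted p = 0.19).

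In liver at 6 mmol/kg no gene of the table was called for a difference between the chemicals by edgeR, with 1169 at an unadjusted p under 0.05, while DESeq2 called 41 and a direct comparison without the vehicles called 67. Angptl4 differed by -0.61, with an interval of -1.56 to 0.33. Pdk4 differed by 1.06 (0.04 to 2.07, adjusted p = 0.552) and Irs2 by 1.51 (-0.06 to 3.09, adjusted p = 0.576). The intervals of Pck1 (-0.72 to 1.18), G6pc (-1.63 to 0.77), Igfbp1 (-1.20 to 2.02), Foxo1 (-0.37 to 1.22), Tat (-0.68 to 0.95) and Creb3l3 (-0.75 to 0.21) all held 0.

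**Figure D4:**
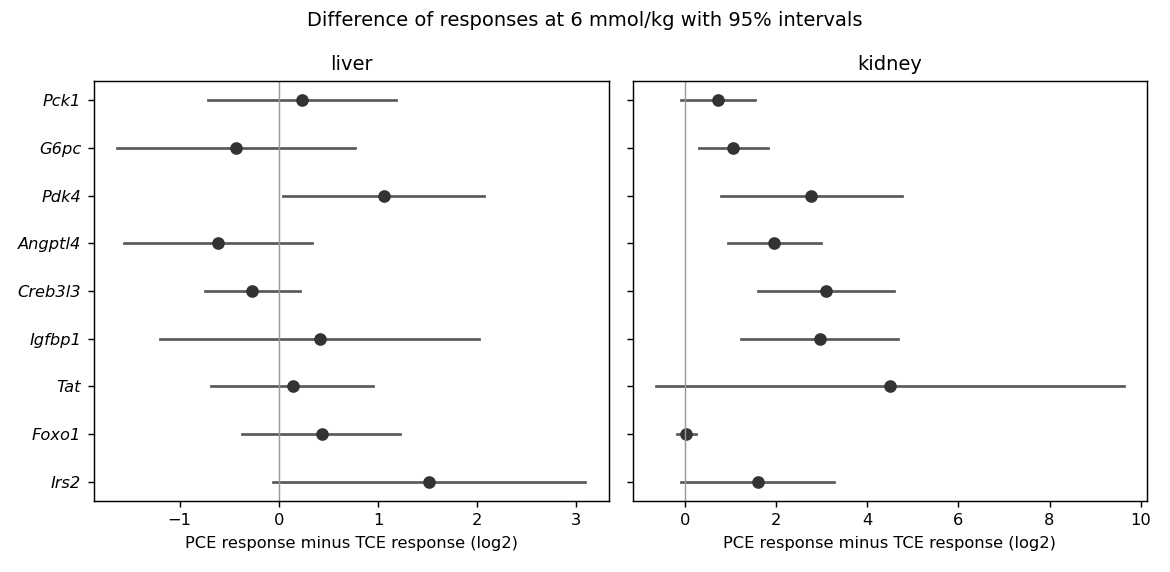
PCE response minus TCE response at 6 mmol/kg on the log2 scale, for each member in liver and in kidney. Points are the differences and lines their 95% intervals. In kidney the intervals of Creb3l3, Igfbp1, Pdk4, Angptl4 and G6pc lie above 0, and none of the 9 passed after adjustment over all genes.

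The liver and kidney responses were compared directly at 6 mmol/kg. Creb3l3 responded to PCE differently in the 2 tissues, with a liver minus kidney difference of -3.09 ± 0.50 (adjusted p = 0.000399), 1 of 9 members where 0.709% of all tested genes were called and 0.334% were lower. In liver it had 391, 376 and 381 CPM at 6 mmol/kg PCE, against 384, 415 and 457 CPM in vehicle livers, while in kidney it left its trace level as described. Pdk4 differed by -2.59 ± 0.75 (adjusted p = 0.0926), Igfbp1 by -2.09 ± 0.88 and Angptl4 by -1.36 ± 0.50 (adjusted p = 0.2), none called. The Pdk4 difference was called by DESeq2 (adjusted p = 0.021) and without the second kidney at 6 mmol/kg PCE (adjusted p = 0.0291). Over all genes DESeq2 called 323 in that contrast, against 106 by edgeR. For TCE no member differed between tissues past the threshold, and 0.328% of all genes did. The largest such value, apart from kidney Tat, was 1.22 ± 0.46 for Angptl4 (adjusted p = 0.334), in the direction of liver.

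**Figure D5:**
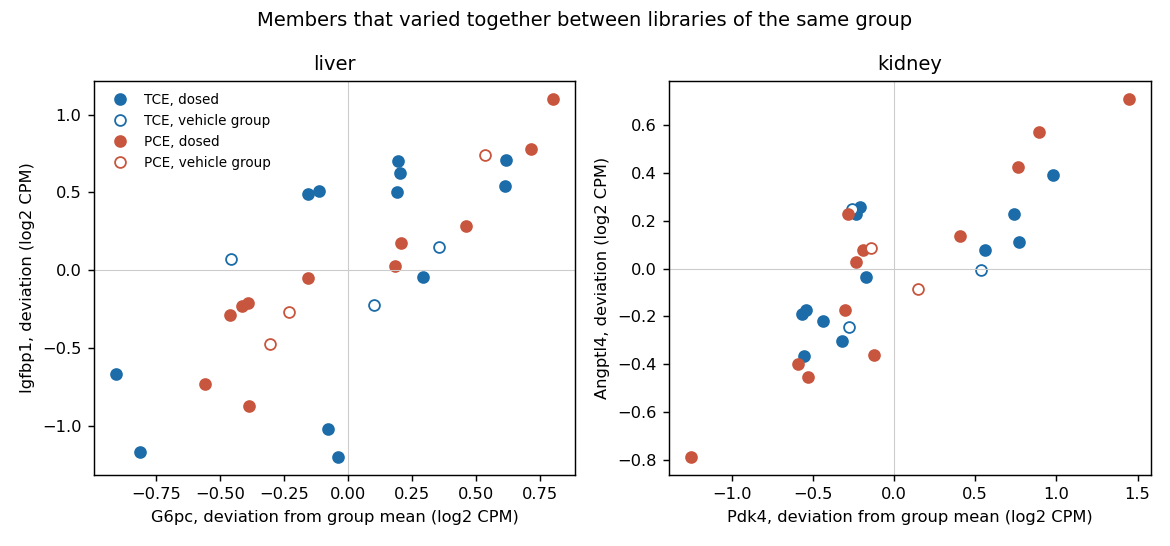
Deviations from the group mean of log2(CPM + 0.5) for G6pc and Igfbp1 in 29 livers and for Pdk4 and Angptl4 in 29 kidneys, a point for each library, TCE in blue, PCE in red, vehicle libraries open. The points rise together in both panels, with r = 0.75 in liver and r = 0.81 in kidney.

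Members also moved together between mice of the same group, after the group means were taken out. Unequal responses of mice to the same dose would remain in these deviations, and their part was not tested. Of 36 pairs in each tissue, 4 passed in liver and 7 in kidney by Pearson's r of deviations from group means, after adjustment over the pairs, and all were positive. By Spearman's rho the same 4 passed in liver, and 4 of the 7 in kidney. In liver, G6pc followed Igfbp1 (r = 0.75, rho = 0.77, permutation p = 1.0e-05 and 2.0e-05, adjusted p = 3.6e-04 and 7.2e-04) and r stayed at 0.70 without the 2 farthest libraries. G6pc followed Irs2 (r = 0.64, rho = 0.58, permutation adjusted p = 0.00324 and 0.0166), and Igfbp1 followed Irs2 (r = 0.60, rho = 0.58, permutation adjusted p = 0.00504 and 0.0166), with 0.61 and 0.55 without 2 libraries. As background, G6pc, Igfbp1 and Irs2 are known targets of FOXO1. Foxo1 RNA itself had r = -0.19, -0.04 and 0.26 with them in that order. Pck1 had r = 0.14, 0.17 and 0.06 with them, and none of these pairs passed. The part of FOXO1 was not tested. Pck1 followed Angptl4 (r = 0.61, rho = 0.52, permutation adjusted p = 0.00504 and 0.0372), with 0.52 without 2 libraries.

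In kidney another pattern held. Pdk4 followed Angptl4 most closely (r = 0.81, rho = 0.74, permutation p = 1.0e-05 for both, adjusted p = 3.6e-04 for both), with 0.74 without the 2 farthest libraries. Pck1 followed Foxo1 (r = 0.71, rho = 0.64, permutation adjusted p = 5.4e-04 and 0.0042, 0.60 without 2 libraries) and G6pc (r = 0.53, rho = 0.58, permutation adjusted p = 0.0157 and 0.0103, 0.44 without 2 libraries). The pair of Tat and Foxo1 passed too (r = 0.49, rho = 0.63, permutation adjusted p = 0.041 and 0.0042), but on 0 to 50 counts of Tat a kidney, too few to read as co-variation. The pairs of Igfbp1 with Pdk4 and with Angptl4, and of Pck1 with Creb3l3, passed by r alone, and r for Angptl4 with Igfbp1 was 0.64 over all libraries and 0.34 without 2. G6pc and Igfbp1, the leading pair of liver, had r = 0.08 in kidney. The difference between tissues was not tested.

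The genes whose levels most resembled the leading kidney members over all 29 kidneys, among 11455 genes of at least 1 CPM on average, were the following, given as a description. Angptl4 was most like Cyp4a14 (r = 0.87), Cyp4a10 (r = 0.86) and Acot1 (r = 0.85). Creb3l3 was most like Decr1 (r = 0.86), Retsat (r = 0.86) and Vnn1 (r = 0.85). Igfbp1 was most like Tcp11l2 (r = 0.84), Crebrf (r = 0.83) and N4bp2l1 (r = 0.82). Without the first kidney at 6 mmol/kg PCE these values were 0.74 to 0.82. Dose and library run through all of these values together.

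Around the members, the list of fasting lipid genes under PPARa and CREB3L3 held the most calls. The list was chosen with earlier results of these data known, so the count is a description and no independent support. At 6 mmol/kg, 7 of 25 rose in liver with TCE, 10 of 25 rose and 1 fell in liver with PCE, 11 of 24 rose and 1 fell in kidney with PCE, and 0 of 24 changed in kidney with TCE. Of all tested genes, 1.31, 5.84, 3.83 and 0.176% were called in that order. The list's median log2 difference was 0.54, 0.56, 0.75 and 0.15, against -0.04, -0.00, 0.03 and 0.01 over all tested genes. Ehhadh, an enzyme of peroxisomal fat oxidation, had 1037 ± 174 CPM at 6 mmol/kg TCE and 163 ± 79.1 CPM in vehicle livers (SD, n = 3 each), a change of 2.67 ± 0.39 (adjusted p = 0.00122). With PCE it had 2097 ± 536 CPM in liver, against 205 ± 64.7 CPM in vehicle livers, a change of 3.36 ± 0.40 (adjusted p = 5.8e-05). In kidney Acot1, an acyl-CoA thioesterase, had 400 ± 174 CPM with PCE (SD, n = 3) and 76.8 ± 7.19 CPM in vehicle kidneys (SD, n = 2), a change of 2.38 ± 0.29 (adjusted p = 8.91e-05). Vnn1, a pantetheinase, rose by 3.07 ± 0.45 in liver and by 1.79 ± 0.24 in kidney with PCE.

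Of 24 other gluconeogenesis enzymes and carriers, 0 were called in liver with TCE, 1 rose in liver with PCE, 0 were called in kidney with TCE and 2 rose in kidney with PCE, beside 1.31, 5.84, 0.176 and 3.83% of all tested genes. The liver gene was Fbp2, a fructose bisphosphatase found mainly in muscle, at 0.431 ± 0.0503 CPM against 0.0879 ± 0.0301 CPM in vehicle livers. In kidney, Pck2, the mitochondrial counterpart of Pck1, had 46.6 ± 2.82 CPM with PCE (SD, n = 3) and 26.2 ± 1.81 CPM in vehicle kidneys (SD, n = 2), a change of 0.83 ± 0.10 (adjusted p = 3.51e-05), and Fbp2 rose by 0.59 ± 0.16. Among the regulators of gluconeogenesis tested in liver, Esrra, an orphan nuclear receptor of energy metabolism, fell by 0.62 ± 0.11 with PCE (adjusted p = 0.00366), none rose, and TCE called none of 18. In kidney 1 of 19 regulators rose with PCE, Klf15, a factor induced by fasting, by 0.60 ± 0.17 (adjusted p = 0.0484).

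Genes of insulin signalling and IGF binding gave 1 call of 19 in liver with TCE, where the receptor substrate Irs1 fell by 0.92 ± 0.22 (adjusted p = 0.033). Over all tested genes, 1.31% were called there, 5.84% in liver with PCE and 3.83% in kidney with PCE. A single call in lists this short is not read as a result about the list. With PCE in liver 3 rose and 1 fell. Trib3, a pseudokinase that restrains AKT, rose by 1.30 ± 0.30, and Igfals, which stabilises circulating IGF, fell by 0.86 ± 0.21. In kidney with PCE 3 of 19 rose and none fell. Trib3 had 9.14 ± 3.09 CPM there (SD, n = 3), against 0.696 ± 0.00677 CPM in vehicle kidneys (SD, n = 2), a change of 3.71 ± 0.41 (adjusted p = 1.81e-05), and the insulin receptor Insr rose by 0.51 ± 0.09. Of 10 other tested genes of the pyruvate dehydrogenase switch, only Pdk3 in kidney with PCE was called at 6 mmol/kg, and it fell by 0.35 ± 0.09.

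The fed-state list, whose products make fat and break down glucose, gave no call in liver at 6 mmol/kg PCE over 17 genes. Thrsp and Gckr fell along the PCE dose trend by 0.43 ± 0.10 and by 0.16 ± 0.05 per step. That trend called 11.8% of all tested genes. Txnip, an inhibitor of glucose uptake, rose by 2.41 ± 0.61 in liver with TCE (adjusted p = 0.0494) and by 1.48 ± 0.37 in kidney with PCE (adjusted p = 0.0232). Among 10 tested glucocorticoid targets in liver, 2 rose with PCE at 6 mmol/kg. They were Zbtb16, a zinc finger factor, with 3.28 ± 0.59 (adjusted p = 0.00422), and Fkbp5, a chaperone of the receptor, with 2.25 ± 0.52 (adjusted p = 0.0163), the second unevenly, at 107 ± 121 CPM, against 22.5 ± 5.86 CPM in vehicle livers (SD, n = 3 each). With TCE the called gene of that list was Lcn2, which fell by 7.72, with 4.18 ± 3.37 CPM at 6 mmol/kg and 879 ± 852 CPM in uneven vehicle livers. In kidney 1 of 11 was called with PCE, Sgk1, which rose by 1.38 ± 0.34. Of 17 tested amino acid catabolism genes in liver, none was called with TCE, and with PCE Oat and Ass1 fell by 0.75 ± 0.22 and by 1.13 ± 0.33. In kidney Hpd, an enzyme of tyrosine breakdown next to TAT, rose by 2.19 ± 0.52 with PCE, the called gene of 14, but unevenly, at 506 ± 530 CPM (SD, n = 3), against 111 ± 16.4 CPM in vehicle kidneys (SD, n = 2). TCE in kidney called no gene of any of these lists, where 0.176% of all tested genes were called. Beside the other counts stand 1.31% of all tested genes in liver with TCE, 5.84% in liver with PCE and 3.83% in kidney with PCE. Single calls in such short lists are not read as results about the lists.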

How the data were processed

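RNA of 29 livers and 29 kidneys was sequenced from TruSeq total RNA libraries on a HiSeq-2000, per the labels' protocols. CASAVA 1.8.2, HTSeq, TopHat2 2.0.10 and the build mm10 are listed in the submitters' processing notes. The deposited values are raw counts per RefSeq transcript. The deposited columns at 0.22 and 0.67 mmol/kg hold the same counts, handled here under the unit expected count because a line of decimal doses heads them. Their values are whole, so rounding changed none. The lines for ambiguous reads (19.68 to 22.55% of a library) and for reads in no feature (14.29 to 27.53%) were left out. Transcripts were summed per symbol, 33392 to 24123 genes.

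Members and lists were chosen with earlier results of these data known. edgeR 4.0.16 in R 4.3.3 (TMM scaling, filterByExpr, robust quasi-likelihood F test) was fitted to all groups of a tissue, with 13174 genes tested in liver and 14216 in kidney, and to all 58 libraries for tissue contrasts with 14949 genes. Trends were fitted on dose rank per chemical. P-values are two-sided, adjusted by Benjamini-Hochberg over all genes of a contrast, and called under 0.05. SEs were derived as |log2 change|/sqrt(F). DESeq2 1.42.0 was an alternative. Co-variation used deviations from group means of log2(CPM + 0.5) and 100000 two-sided permutations. It covered 36 pairs per tissue, since Ppargc1a was at 0 and gave no pair. Relations to library slopes and marker sums used the same kind of permutations. All of these moved deviations freely across groups although group means had been removed, so their p-values are likely too small. Transcript lengths came from annotated transcripts matched by RefSeq accession, and promoter windows from RefSeq, GRCm38.p6. The fit was tested on simulated data.

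The text names all 10 members, from each other list at most the 2 called genes with the smallest adjusted p in a comparison, and for the 3 members with the smallest adjusted p the 3 genes of most like pattern. A called gene of the regulator list is not reported here. The labels do not say which libraries share a mouse across tissues. Replicates are samples of 1 group. Group contrasts set a difference against the spread between replicates. That spread is estimated over all groups of a fit, not in the compared groups alone. All 56 replicate pairs differed beyond counting noise (chi-square per degree of freedom at least 13.57). Alternatives covered scaling, the count filter, pooled vehicles, covariates, a replicate block and each library left out, and 1 added after seeing the data left out kidneys rich in Ucp1.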

Additional observations from a re-analysis of the deposited data

Results flagged for a closer look

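Creb3l3 responded to 6 mmol/kg PCE differently in liver and kidney, by a test of the difference itself. The liver minus kidney difference in log2 change was -3.09 ± 0.50 (edgeR, adjusted p = 0.000399). Kidney Creb3l3 had 2.24, 0.748 and 1.26 CPM after PCE, against 0.192 and 0.159 CPM in vehicle kidneys, while liver Creb3l3 had 391, 376 and 381 CPM after PCE, against 384, 415 and 457 CPM in vehicle livers. Those vehicle kidneys held only 5 counts each. Vehicle kidneys of the TCE arm, which do not enter this difference, had 0.263, 0.846 and 0.436 CPM. The highest of them lay above the lowest kidney at 6 mmol/kg PCE.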

How the results depend on the processing

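Of 1106 counts of called members under alternative settings, 1064 stayed within 1.5 times the main count and 42 did not. Of 4050 values of single genes and pairs, 3973 kept their side of the threshold, 69 of these with the other sign but called in neither fit, 63 lost and 13 gained a call, and 1 reversed. Counts of 0 in both fits and values called in neither also stand as unchanged. The totals thus do not measure how stable the calls were. The cause was not tested for any of the changes. DESeq2 called 1 member at 0.67 and at 2 mmol/kg TCE and at 2 mmol/kg PCE in liver, 1 at 2 mmol/kg PCE in kidney, 1 in the kidney TCE trend, 2 in the kidney difference between chemicals at 6 mmol/kg and 2 in the tissue difference at 6 mmol/kg PCE, against 0, 0, 0, 0, 0, 0 and 1 in edgeR. With pooled vehicles, liver gave 1 at 0.67 mmol/kg TCE, 1 at 2 mmol/kg PCE and 2 at 6 mmol/kg PCE. With length and GC slopes as covariates, liver gave 0 at 6 mmol/kg of either chemical and 0 in both trends, and the Foxo1 trend with PCE reversed to -0.03 per step. Over all genes that setting called 60 at 6 mmol/kg TCE, against 172, and 16 at 6 mmol/kg PCE, against 770. The TCE trend called 0, against 106, and the PCE trend 148, against 1537. Without a count filter the liver PCE trend called 1 member, against 3. In kidney, PCE libraries fitted alone called 2 members at 6 mmol/kg, against 4, and the PCE trend called 2 without the kidneys rich in Ucp1, against 5.

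Leaving out 1 library gave 0 to 1 members in liver at 2 mmol/kg TCE and at 6 mmol/kg PCE and 0 to 3 in the liver PCE trend. In kidney it gave 0 to 1 at 2 mmol/kg PCE, 1 to 4 at 6 mmol/kg PCE, 3 to 5 in the PCE trend and 0 to 3 in the difference between chemicals at 6 mmol/kg, and it gave 1 to 2 in the tissue difference for PCE. Samples with the same replicate number did not deviate together (mean r -0.04 in liver and 0.01 in kidney), so the numbers were not taken as pairs. A replicate block left 3 members in the kidney PCE trend, and it ended the calls of Pck1 between tissues (0.50, adjusted p = 0.118) and of Pdk4 in the liver PCE trend (0.21, adjusted p = 0.0522).

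Genes called in all moved by over 1.5 times. Leaving out 1 library gave 28 to 224 in liver at 6 mmol/kg TCE, 56 to 1258 at 6 mmol/kg PCE, 22 to 228 in the liver TCE trend and 428 to 2568 in the liver PCE trend. Across settings other than left-out libraries they were 43 to 353 in liver at 6 mmol/kg TCE, against 172, 16 to 1613 with PCE, against 770, and in kidney 0 to 138 with TCE, against 25, and 392 to 1359 with PCE, against 545. The trends gave 0 to 448 genes in liver with TCE, against 106, 148 to 2368 with PCE, against 1537, and in kidney 0 to 139 with TCE, against 0, and 59 to 978 with PCE, against 466. DESeq2 gave kidney Creb3l3 no adjusted p with PCE. Traces of Creb3l3 and Tat in kidney rest on few counts.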
